A study of Canis lupus familiaris with 18 samples.

Results

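The 100 genes whose expression varied least over 18 cultures of canine vascular cells were described here. RNA was sequenced from canine primary endothelial cells (CaPECs), the cells that line the inside of a vessel, and from vascular smooth muscle cells (VSMCs), the contractile cells of the vessel wall. Both came from 3 vessels (aorta, abdominal vena cava, and vena porta) of 3 healthy adult male dogs, which were cadavers left from unrelated pacemaker research. The paper states that both cell types were taken from the same vessels, so the samples are not from separate animals. No treatment or genetic change of the cultures is named in the labels, and RNA was taken at the same passage throughout. Each cell type and vessel had 3 samples, so that there were 9 CaPEC and 9 VSMC samples. CaPECs were grown in an endothelial growth medium on gelatin and VSMCs in a serum-containing medium, so that cell type and medium cannot be told apart in these data. The samples of each group are numbered 1 to 3, and within a cell type the deposited column names carry the same 3 codes in every vessel.

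The genes were selected on their measured counts. Counts were divided by the total of the sample, expressed as counts per 1000000 (CPM), and divided by a TMM factor, a scaling factor that edgeR derives from the bulk of genes that change little between samples. Of the 24580 genes, 4165 had at least 20 CPM in all 18 samples, and the 100 with the lowest coefficient of variation (CV, the SD divided by the mean over the 18 samples) were taken. The spread of these genes over the 18 samples, and any difference between groups of these samples, is therefore limited by the choice itself and is given as a description. The genes are listed by Ensembl identifier only. Of the identifiers, 0 matched the gene table used here, so what these genes do, which proteins they encode, and the markers of the cell types were not analysed here.

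Genes with steady transcript levels commonly serve basic functions that all cells need, such as making and breaking down proteins, and are known as housekeeping genes. In quantitative PCR they are used as reference genes, against which the other genes of a sample are expressed to correct for unequal input. A gene that is steady in one tissue or culture may differ in another, so reference genes are chosen for each cell system. Read counts are shares of a library, and a gene can only be called stable relative to the scaling that was used.

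Samples held 6020932 to 13422177 counted reads in CaPECs (median 8464427) and 7341227 to 15746769 in VSMCs (median 10027682). The lowest count of a member in any sample was 159 and the highest 8298. The 100 most abundant genes of a sample held 33.0% to 39.2% of the reads in CaPECs and 38.9% to 48.1% in VSMCs. The labels do not say whether equal numbers in CaPECs and VSMCs stand for the same dog. In such cultures a lower level cannot be told apart from fewer expressing cells.

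The CV of the 100 genes ranged from 6.27% to 9.54%, with a median of 8.61%, while the median over all 4165 eligible genes was 20.6%. The highest sample of a member was 1.25 to 1.499 times its lowest sample (median 1.36), and for the eligible genes the median ratio was 2.10. The list had no natural end. ENSCAFG00000003678, the last gene inside, had a CV of 9.54%, and ENSCAFG00000014251, the first gene outside, had a CV of 9.56%. A further 39 genes lay within 0.5 percentage points above the limit, and 29 members lay within 0.5 points below it.

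The part of this spread that read counting alone would give differed between members. From the mean count of each gene, counting alone would give the members a CV of 1.42% to 6.34% (median 3.51%). This was 17.7% of the squared CV for the median member and at most 56.8%, and over all eligible genes the median share was 3.28%. With the counting part subtracted, the members had a CV of 5.13% to 9.27% (median 7.65%). When the genes were ranked on this remaining CV, 86 of the 100 were chosen again.

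The members had neither the most nor the fewest reads among the eligible genes. Their mean level ranged from 27.3 to 545 CPM (median 89.0, against 73.9 for all eligible genes). CPM is not corrected for gene length, since lengths were not used here, so these levels compare the number of reads and not of transcripts. When the eligible genes were ranked by mean CPM and divided into 5 groups of 833 genes, the members numbered 9, 15, 30, 33, and 13 from the lowest group to the highest. In the lowest group, below 42.9 CPM, counting alone gave a median CV of 5.54%. In the highest group, above 169.9 CPM, counting gave only 1.90%, but the median CV of the genes was the largest of the 5 groups, at 27.1%. Of the 100 eligible genes with the most reads, 0 were members.

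**Figure D1:**
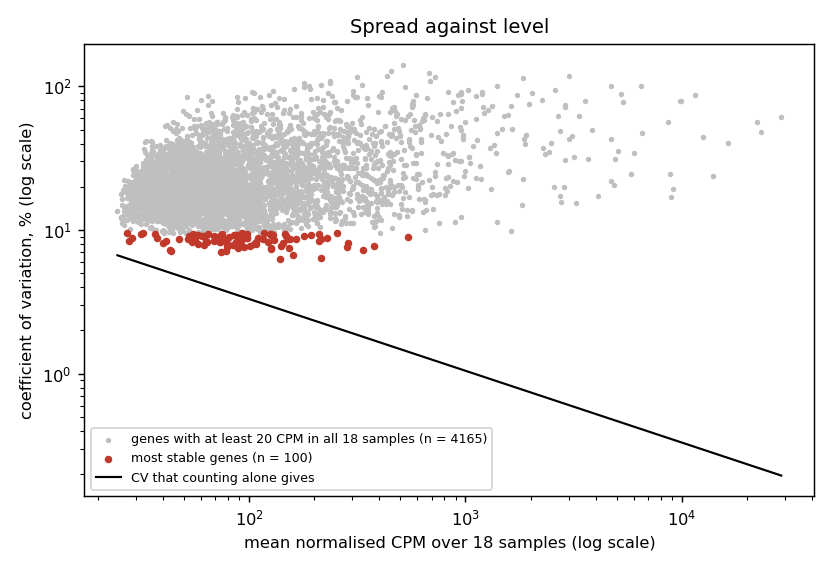
Coefficient of variation (%, log scale) of each gene over the 18 samples against its mean normalised CPM (log scale), for the 4165 eligible genes in grey and the 100 most stable genes in red. The line gives the CV of counting alone, and all red points lie above it, between 6.27% and 9.54%.

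The gene with the lowest CV, ENSCAFG00000008429, had a mean of 139.7 ± 8.76 normalised CPM (SD, n = 18) and a CV of 6.27%. In CaPECs it ranged from 129.6 to 153 CPM (median 137), and in VSMCs from 119 to 153 (median 143). The cell types overlapped over nearly their whole range, and only the VSMC sample aorta 3, at 119 CPM, lay below the CaPEC samples. ENSCAFG00000010377 had a mean of 216 ± 13.7 CPM (SD, n = 18) and a CV of 6.35%. It ranged from 187 to 241 CPM in CaPECs (median 216) and from 199.8 to 233 in VSMCs (median 219). Its highest and lowest samples both came from vena cava CaPECs, which were at 241, 192, and 187 CPM, while the aortic CaPECs were at 218, 221, and 219.8 CPM.

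The next genes in the order were ENSCAFG00000007754 and ENSCAFG00000015005. ENSCAFG00000007754 had a mean of 159.5 ± 10.7 CPM (SD, n = 18), with 147 to 172 CPM in CaPECs (median 158) and 140.3 to 181 in VSMCs (median 162). Here the VSMCs spread more widely and enclosed all CaPEC samples, and both extremes were VSMC samples, vena cava 1 and aorta 3. ENSCAFG00000015005 had a mean of 74.3 ± 5.24 CPM (SD, n = 18), with 64.7 to 85.2 CPM in CaPECs (median 76.6) and 68.9 to 79.7 in VSMCs (median 72.4). In this gene it was the CaPECs that enclosed the VSMC samples, from aorta 1 at the lower end to vena porta 1 at the upper. The log2 difference of CaPECs over VSMCs rounded to -0.03, -0.03, 0.00, and 0.03 in these 4 genes.

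**Figure D2:**
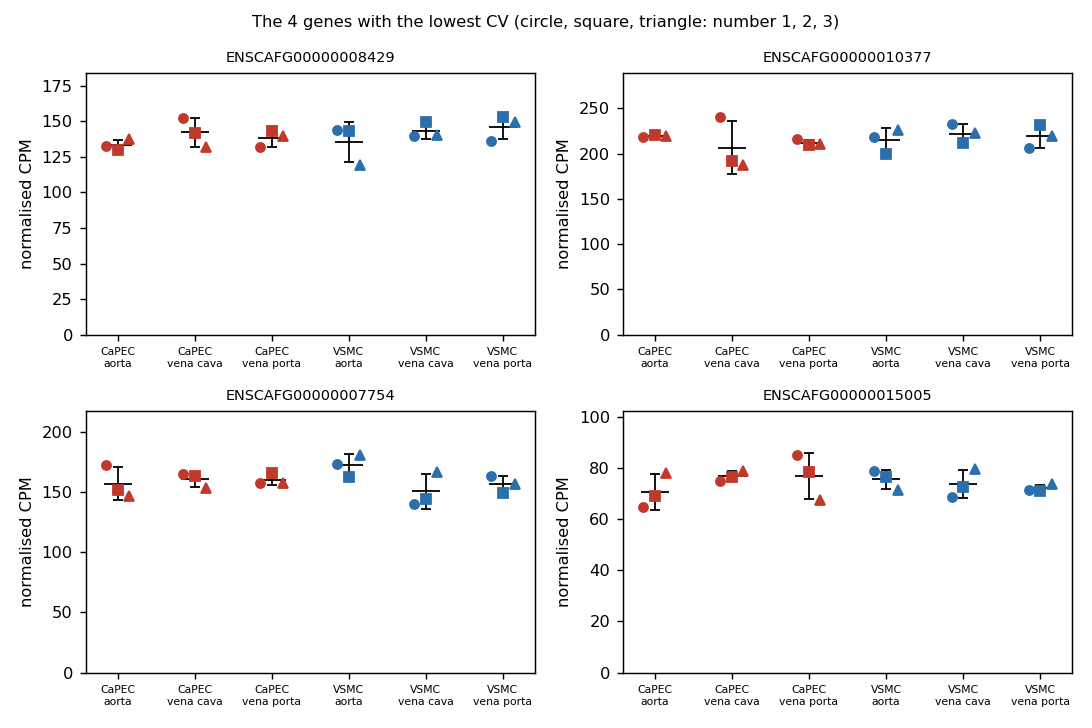
Normalised CPM in each of the 18 samples for the 4 genes with the lowest CV, by cell type and vessel, with axes from 0. Points are samples (CaPECs in red, VSMCs in blue), and the bar and whiskers give the mean and SD of the 3 samples of a group. CaPECs and VSMCs overlap in every panel, and ENSCAFG00000008429 is lowest in the VSMC sample aorta 3 at 119 CPM.

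The member with the most reads was ENSCAFG00000009618, with a mean of 545 ± 48.9 CPM (SD, n = 18) and a CV of 8.97%. Its VSMC samples lay close together, from 513 to 557 CPM (median 532), while the CaPEC samples ranged from 481 to 713 (median 539.7). The CV was 3.14% in VSMCs, the lowest value of any eligible gene in these 9 samples, and 12.1% in CaPECs. The upper end was made by the CaPEC samples aorta 1 at 713 CPM and aorta 2 at 597 CPM. Without aorta 1 alone, which was left out after its value was seen, the CV in CaPECs was 6.56%.

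Within CaPECs alone, the members had a median CV of 8.81%, from 4.96% to 12.6%, and within VSMCs alone a median of 7.35%, from 3.14% to 11.5%. The CV was higher in CaPECs for 70 of the 100 members. Among all eligible genes it was higher in CaPECs for 77.9%, with medians of 18.8% in CaPECs and 13.6% in VSMCs. Between the 3 samples of the same vessel and cell type, the median CV of the members was 5.62% for VSMCs of the aorta, 6.01% of the vena cava, and 6.39% of the vena porta. For CaPECs it was 6.86%, 6.89%, and 7.94% for the same vessels. The eligible genes spread most between the samples of vena cava CaPECs, with a median CV of 16.8% against 11.2% to 15.0% in the other 5 groups, whereas the members spread most in vena porta CaPECs.

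To describe which groups the remaining spread followed, the sum of squares of log2 CPM was divided for each gene between cell type, vessel within cell type, replicate number within cell type, and the rest. In the median member, cell type held 5.56%, vessel 24.8%, replicate number 19.0%, and the rest 39.3%. The means over the members were 10.5%, 28.4%, 21.0%, and 40.2%, and the shares of these terms in the degrees of freedom are 5.88%, 23.5%, 23.5%, and 47.1%. In all eligible genes the median share of cell type was 26.6%. The rest was the largest part in 56 members, vessel in 30, replicate number in 8, and cell type in 6. The choice over all 18 samples removes genes with a large difference between cell types, so the small share of cell type is not a separate result.

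The difference between CaPECs and VSMCs was fitted for 11223 genes with the quasi-likelihood test of edgeR. At a Benjamini-Hochberg adjusted p-value below 0.1, 7 of the 100 members were called, against 50.3% of all genes tested. Of these, 5 were higher in CaPECs (27.5% of all genes) and 2 in VSMCs (22.8% of all genes). Their log2 differences were 0.14 to 0.20 in absolute size, and the median over all genes called was 0.67. Over the 100 members, the median absolute log2 difference was 0.05 and the largest 0.20, with a standard error of 0.06 to 0.08, and over all eligible genes the median was 0.28. The 95% interval of the difference lay within 0.4 log2 units of 0 for all 100 members and for 1311 of the 4165 eligible genes. Since the same samples chose the genes, these intervals do not describe other samples. The split between directions depended on the scaling. With DESeq2, or with its size factors in edgeR, 9 members were called, of which 7 were higher in VSMCs and 2 in CaPECs. These included 4 of the 7 members called with TMM factors. Over all genes DESeq2 called 37.6% (19.8% higher in CaPECs and 17.7% in VSMCs), and edgeR with the size factors called 49.99% (26.1% and 23.9%). When the 3 vessels of each number were summed, which leaves 3 samples against 3, edgeR called 1 member and 43.6% of all genes. Without replicate number 1 it called 2 members (41.9% of all genes), without number 2 it called 3 (37.2%), and without number 3 it also called 3 (41.5%).

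The members with the largest differences were still close in level. ENSCAFG00000005576 had 101 to 124 CPM in CaPECs (median 116) and 95.5 to 109 in VSMCs (median 102), a log2 difference of 0.16 with a standard error of 0.06. ENSCAFG00000017492 had 61.1 to 72.2 CPM in CaPECs (median 67.4) and 53.0 to 65.3 in VSMCs (median 60.7), with the same log2 difference of 0.16 and standard error of 0.06. In both, the upper CaPEC samples lay above all VSMC samples and the lower ones among them. ENSCAFG00000008420 was higher in VSMCs, with 193 to 214 CPM (median 208) against 157 to 196 in CaPECs (median 179), and a log2 difference of -0.20 (standard error 0.06). In this gene only the CaPEC sample aorta 1, at 196 CPM, reached into the range of the VSMCs. ENSCAFG00000015611 had 141 to 178 CPM in VSMCs (median 153) and 126 to 153 in CaPECs (median 139.9), a log2 difference of -0.14 (standard error 0.07). In 0 of the 100 members did all samples of a cell type lie above all samples of the other, whereas this was so for 9.58% of the eligible genes.

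**Figure D3:**
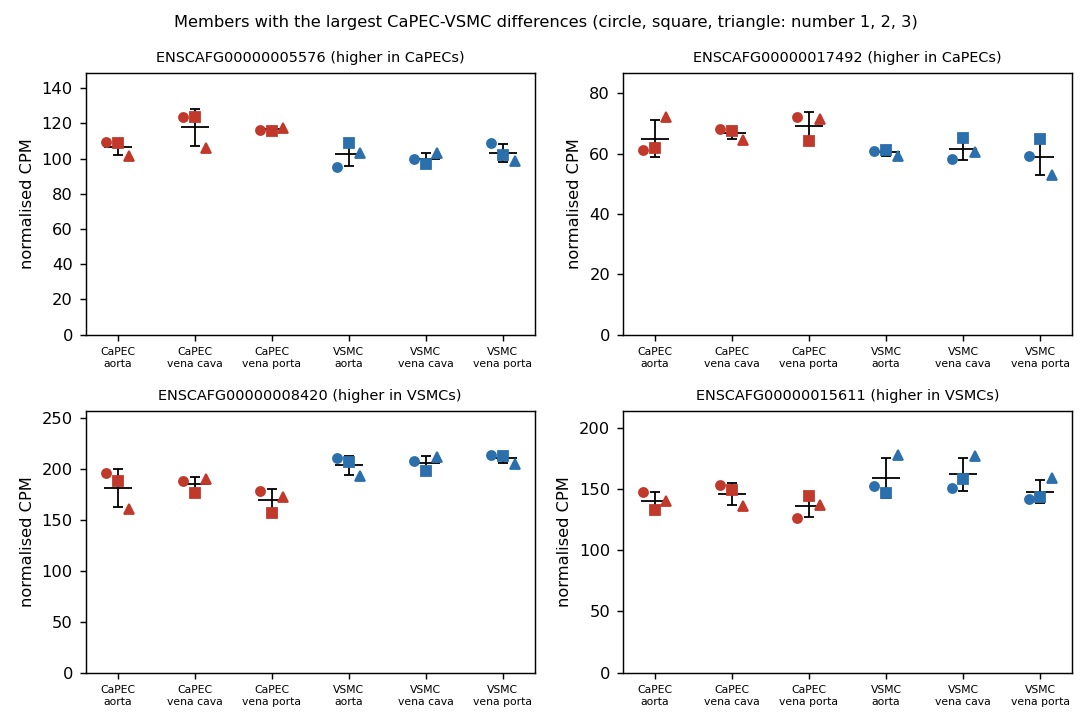
Normalised CPM in each of the 18 samples for the 2 members most above VSMCs in CaPECs (upper panels) and the 2 most below (lower panels), by cell type and vessel, with axes from 0. Points are samples (CaPECs in red, VSMCs in blue), and the bar and whiskers give the mean and SD of 3 samples. The largest log2 difference is -0.20, in ENSCAFG00000008420, and the cell types overlap in each gene.

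The vessel of origin was compared in the same way, as aorta against both veins in CaPECs and in VSMCs, where a call needed a log2 fold change beyond 0.4 in size and an adjusted p-value under 0.05. In CaPECs, edgeR called 0 members, against 0.898% of the 11696 genes tested. At an unadjusted p-value below 0.05 there were also 0 members, against 13.5% of all genes. DESeq2 called 0 members and 3.20% of all genes, with 1 member and 11.98% of all genes below the unadjusted limit. In VSMCs, edgeR called 0 members, against 0.104% of the 11484 genes tested, with 2 members and 12.5% of all genes below the unadjusted limit. DESeq2 called 0 members and 1.91% of all genes, with 2 members and 9.92% of all genes below the unadjusted limit. With the replicate number as a block, the calls over all genes were 47 in place of 105 in CaPECs and 144 in place of 12 in VSMCs, and 0 members were called in either. The log2 difference between aorta and veins ranged from -0.22 to 0.22 in CaPECs and from -0.18 to 0.26 in VSMCs over the members. No member thus reached the 0.4 that a call needed in these fits, and since the same samples chose the genes, the 0 calls are not a separate result. Their median absolute size was 0.09 in CaPECs, against 0.19 for the eligible genes, and 0.07 in VSMCs, against 0.13. For the interaction term, a call needed only an adjusted p-value under 0.05, with no limit on the fold change. This term, a difference between CaPECs and VSMCs in aorta against veins, was called in 0 members and 0.334% of the 12288 genes tested. With edgeR, 1 member and 10.3% of all genes had an unadjusted p-value below 0.05 for it. DESeq2 called 0 members and 1.29% of all genes, with 1 member and 8.41% of all genes below the unadjusted limit.

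Between the means of the 6 groups, the highest was 1.06 to 1.28 times the lowest (median 1.16), and for all eligible genes the median ratio was 1.53. No group held most of the extremes. Vena cava CaPECs had the highest mean in 25 members and aortic VSMCs in 23, and vena porta CaPECs had the lowest mean in 26. Among single samples, the VSMC sample aorta 3 stood highest for the members as a whole, with a geometric mean 1.03 times the average sample, and the CaPEC sample vena porta 3 stood lowest, at 0.972. The latter sample was the lowest of the 18 in 14 members and also had the largest median deviation from the gene means, 0.11 log2 units. In the other samples this deviation was between 0.06 and 0.11. For CaPECs of vena cava 1, which had the highest value in 12 members, it was 0.09. Such counts of highest and lowest groups or samples were not made over all eligible genes, so they cannot be called particular to the members.

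A measure of the spread that the choice did not use was obtained by leaving out samples. When the rule was applied to the 12 samples of replicate numbers 2 and 3, the 100 genes chosen had a median CV of 7.81% in these samples. In the 6 samples numbered 1, which were left out, their median CV was 11.1%, while the eligible genes had a median of 23.0%. Without number 2, the genes chosen had a median of 10.3% in the samples left out, against 19.5%, and without number 3 it was 11.5% against 19.9%. Between 91 and 97 of the 100 genes lay below the median of the eligible genes in the samples left out, and 31 to 54 lay in the lowest 10%. The genes chosen were thus steadier than most others in samples that had no part in the choice, although less steady than in the samples that chose them. The scaling factors were computed over all 18 samples, as the rule states, and the samples left out came from the same vessels.

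**Figure D4:**
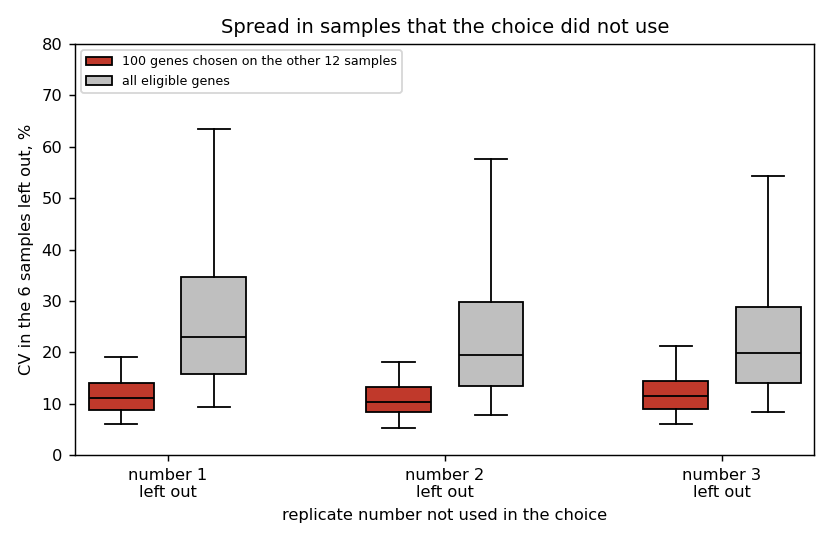
CV (%) in the 6 samples of the replicate number left out, for the 100 genes chosen on the other 12 samples (red) and all eligible genes (grey). Boxes give the quartiles with the median, and whiskers the 5th and 95th percentiles. The medians of the chosen genes are 10.3% to 11.5% and those of all eligible genes 19.5% to 23.0%.

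The identity of the genes was less steady than their spread. Of the 100 members, 62 were chosen again without number 1, 59 without number 2, and 60 without number 3, and 27 were chosen each time. ENSCAFG00000008429 ranked 18, 7, and 3 in these choices, and ENSCAFG00000010377 ranked 11, 5, and 11. ENSCAFG00000007754 ranked 14, 18, and 14, and ENSCAFG00000015005 ranked 4, 45, and 44. ENSCAFG00000009618, at rank 68 over all samples, ranked 3, 206, and 219, and ENSCAFG00000003678, at rank 100, ranked 148, 62, and 348. After all libraries had been thinned to the smallest total count, 76 of the 100 were chosen again, and ENSCAFG00000008429 still ranked 1.

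When the rule was applied to each cell type alone, the lists of 100 genes had 6 genes in common. The members included 32 genes of the CaPEC list and 18 of the VSMC list, 4 of them in both, and 54 members were on neither. The genes chosen in CaPECs had a median CV of 10.1% in VSMCs, where all genes eligible in CaPECs had 14.0%. The genes chosen in VSMCs had a median CV of 14.0% in CaPECs, against 20.4%. In either direction, 85 to 88 of the 100 genes lay below the median of the eligible genes in the other cell type.

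The stability of the members was bound to the scaling. The 100 genes together held 1.15% to 1.30% of the reads in CaPECs (1.22 ± 0.0587, SD, n = 9) and 0.885% to 1.11% in VSMCs (1.001 ± 0.0824, SD, n = 9), without overlap. Since the genes were chosen to be steady after division by the TMM factor, their share of reads has to follow that factor, and this difference restates the choice. The TMM factors were 1.02 to 1.19 in CaPECs and 0.787 to 1.03 in VSMCs, and overlapped at the VSMC sample vena cava 2 (1.03) and the CaPEC sample aorta 1 (1.02). After division by the factor, the geometric mean of the members relative to the average sample was 0.996 in CaPECs and 1.004 in VSMCs (means of 9 samples). On total counts without TMM factors, all 100 members were higher in CaPECs, by a median of 0.28 on the log2 scale (0.08 to 0.45). The median over all 11223 genes tested moved with them, from 0.03 with TMM factors to 0.31 on total counts. The median CV of the members rose from 8.61% to 14.4% on that scale. With the size factors of DESeq2, the median log2 difference of the members was -0.02, and 35 members had the higher mean in CaPECs, in place of 45 with TMM factors. The edgeR tests recomputed the TMM factors after the filter on low counts, and there 51 members had a positive log2 difference of CaPECs over VSMCs.

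If the rule was applied to total counts, 12 of the 100 members were chosen again. The 100 genes chosen in that way had a median CV of 10.6% on total counts. On the TMM scale their median log2 difference between CaPECs and VSMCs was -0.24, a direction that the choice on total counts and the shift between the scales fix together. With the size factors of DESeq2, 90 of the 100 members were chosen again. Sequence counts alone do not tell which scale is closer to the amount of RNA per cell.

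**Figure D5:**
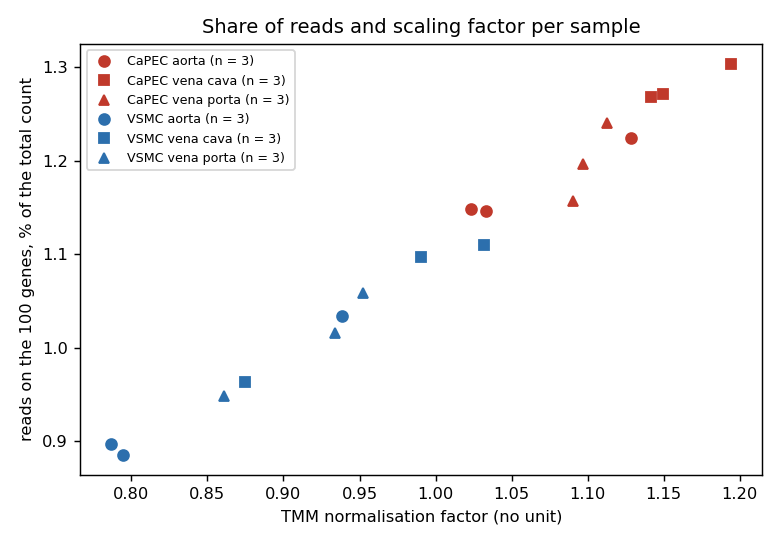
Share of a sample's reads that fell on the 100 most stable genes (% of the total count) against the TMM normalisation factor of the sample (no unit), with 1 point per sample. CaPECs in red lie at 1.15% to 1.30% and VSMCs in blue at 0.885% to 1.11%, and the share follows the factor because the genes were chosen to be steady after division by it. The axes do not start at 0.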

How the data were processed

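Polyadenylated RNA of 18 cultures was sequenced as single-end reads. The authors aligned them to canFam3 with STAR 2.4.2a, added read groups with Picard, sorted with Sambamba, and counted reads per gene with HTSeq 0.6.1p1 in union mode. They deposited raw read counts for 24580 Ensembl genes, without normalization. The annotation release and strand setting are not given in the sources used here. Of the identifiers, 0 matched the gene table at hand, so symbols, lengths, sequences and the gene and marker lists were not used.

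From the deposited counts, edgeR 4.0.16 (R 4.3.3) gave CPM, TMM factors and tests (filterByExpr with a minimum count of 10, glmQLFit and glmQLFTest, Benjamini-Hochberg adjustment over all genes tested), and with DESeq2 1.42.0 as an alternative. Limits were an adjusted p-value of 0.1 between cell types and 0.05 otherwise, with an absolute log2 fold change of 0.4 between vessels. Standard errors were derived from the F statistic. The tests and the choice of genes were tested on simulated data.

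The members, lists and tests were chosen with earlier results of these data known. The genes listed are the 4 with the lowest CV, the member with the highest mean CPM, the 2 with the largest difference in each direction, and those on either side of the limit. Total counts were 6020932 to 15746769 per sample, and counting error falls as the count rises.

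Within a cell type, samples of the same number share a code in their column names, and the paper names 3 dogs, so the number was taken as the dog. Their deviations from the group means correlated by -0.02 on average over 9 CaPEC pairs (-0.34 to 0.23) and by 0.35 over 9 VSMC pairs (0.07 to 0.52). Between CaPECs and VSMCs the codes differ, and the mean over 27 pairs was -0.01. Vessels of the same dog are not independent cultures of separate animals, so p-values over 9 samples per cell type measure a spread that includes samples of the same dog.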

Additional observations from a re-analysis of the deposited data

Results flagged for a closer look

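In 32 groups of 9 samples (the genes listed by identifier and measures of the libraries, for each cell type), Dixon's test was applied to the extreme samples. A sample lay far from the rest in 4 groups. Chance would give 1.6 in independent groups of genes not picked on these values. Here the genes were picked on these same samples, and the groups share samples. No excess can therefore be read from the 4. ENSCAFG00000008429, the gene with the lowest CV, was at 119 normalised CPM in VSMCs of aorta 3, against 137 in the next lowest VSMC sample. ENSCAFG00000009618 was at 713 in CaPECs of aorta 1, against 597 in the next highest CaPEC sample. ENSCAFG00000003678, the last gene inside the limit, was at 112 in CaPECs of vena cava 2, against 93.3 in the next highest. The median absolute deviation of the 100 genes from their means was 0.111 log2 units in CaPECs of vena porta 3, and 0.0933 in the CaPEC sample that followed. The causes were not tested.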

How the results depend on the processing

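In choices on all 18 samples that stay close to the rule, 76 to 100 of the 100 genes were chosen again. These used DESeq2's size factors, other minimum levels, the SD of log2 CPM, counting variance subtracted, or thinned libraries. The list did not hold on total counts, where 12 were chosen again and the median CV of the genes chosen was 10.6%. Nor did it hold with a replicate number left out, where 59 to 62 were chosen again with a median CV of 7.67% to 8.14%. From the CaPEC samples alone 32 were chosen again, and from the VSMC samples alone 18. On total counts, in alternatives added after seeing the data, the CV in the samples left out was 14.4% for a number (median over the 3 choices of their median CV) and 14.5% for a cell type (middle of both medians), in place of 11.1% and 12.05%. The median of the eligible genes was not taken on that scale, so these values do not compare the chosen genes with others.

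Between cell types, 7 members and 50.3% of all genes were called by edgeR. Without a filter on low counts 3 members were called (39.8% of all genes), with a replicate number left out 2 to 3 (37.2% to 41.9%), with vessels summed 1 (43.6%), and 0 (35.8%) at an adjusted p-value below 0.05 with a log2 fold change above 0.4, where 7 members (50.3% of all genes) had an unadjusted p-value below 0.05 in edgeR and 9 (38.4%) in DESeq2. With the replicate block 6 were called (49.4%). Between cell types this block joins CaPECs and VSMCs of equal number, which the labels do not tie to the same dog. Between vessels and for the interaction, 0 members were called under every alternative run with edgeR or DESeq2, where the share over all genes was 0% to 3.20%. The choice of genes with little spread in these samples limits such calls.

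Over all genes, aorta against veins in CaPECs gave 105 calls, 509 with DESeq2, 47 with the replicate block, and 2 to 7 with a number left out. In VSMCs it gave 12 calls, 305 with DESeq2, 24 without a filter, 144 with the block, and 0 to 0 with a number left out, where 789 to 1368 genes had an unadjusted p-value below 0.05 in edgeR. The interaction gave 41 calls, 218 with DESeq2, and 1 to 4 with a number left out. With the block, which here joins equal numbers across cell types, it gave 46. The cause was not tested. Depth limits the genes at low counts most, since counting gave up to 56.8% of a member's squared CV.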
